A study of Mus musculus with 4 samples.

Results

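The cells described here were the ventral, *Nkx6-1*-expressing neuroepithelial cells of the caudal E8.5 mouse embryo. A cell was taken as neural if it held at least 2 UMIs of *Sox2*, at least 3 UMIs summed over *Pax6*, *Sox1*, *Fam181b* and *Nrcam*, at most 1 UMI of *Nkx1-2* and no UMI of *T*. It was taken as ventral if it also held at least 1 UMI of *Nkx6-1* and none of *Pax3*. Members were thus chosen by their measured UMIs of these 9 genes. A UMI, or unique molecular identifier, stands for 1 captured transcript molecule. Of 20198 cells that passed the filters on genes, UMIs and mitochondrial share, 856 were neural and 418 of these were ventral. The dorsal cells used for comparison were the 265 neural cells with at least 1 UMI of *Pax3* and none of *Nkx6-1*.

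The caudal part of E8.5 embryos was dissociated with trypsin and profiled by droplet-based 3′ single-cell RNA sequencing. WT embryos and *Grhl3*-null embryos, which lack *Grhl3*, a transcription factor gene needed for neural tube closure, came from intercrosses of heterozygous mice kept on a pure C57BL/6 background. Cells of 5 WT embryos were pooled, and cells of 3 *Grhl3*-null embryos were pooled, and each pool was run as 2 libraries. The comparison of genotypes therefore rests on 1 pool per genotype, and the tests below measure the spread between libraries of a pool and not between embryos. The filtered cells numbered 5459 and 5116 in the WT libraries and 4842 and 4781 in the *Grhl3*-null libraries. Summed over ventral cells, the libraries held 2382130 and 2148031 (WT) and 4587454 and 5259198 (*Grhl3*-null) UMIs.

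The neural plate acquires its ventral identity from Sonic hedgehog, a secreted protein made first by the notochord beneath the midline and later by the floor plate. Receiving cells sense it through the receptor Patched1 and the transducer Smoothened, and Gli transcription factors carry the response to the nucleus. Graded exposure separates the floor plate, marked by *Foxa2*, from a neighbouring domain with *Nkx2-2* and *Nkx2-9*, from the *Olig2* domain that gives rise to motor neurons, and from more dorsal progenitors, while *Nkx6-1* spans the ventral domains and *Pax3* and *Pax7* mark dorsal progenitors. WNT and BMP proteins from the dorsal side act in the opposite direction.

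*Grhl3* (chr4:135541888-135573630 in mm10, minus strand) was at 1 UMI in the ventral cells of each WT library and at 0 UMIs in those of both *Grhl3*-null libraries. These numbers lie under the floor of 3 UMIs used here, so the ventral cells alone could not check the genotype labels. In dorsal cells *Grhl3* stood at 7.28 and 4.22 CPM in WT and 0 and 0 CPM in *Grhl3*-null, and all 15 dorsal UMIs were in WT libraries.

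The genes of the rule were at levels that the rule itself fixes, and they are given without a test. Levels are given as CPM, the UMIs of a gene per 1000000 UMIs of all ventral (or dorsal) cells of a library. *Nkx6-1* (chr5:101658139-101664996, minus strand), a homeodomain factor of ventral progenitors, was at 119 and 144 CPM in WT and 192 and 200.2 CPM in *Grhl3*-null, with a median of 3 and 3 UMIs per ventral cell in WT and 6 and 5 in *Grhl3*-null and a range over all ventral cells of 1 to 30. *Sox2*, a general neural progenitor factor, was at 283 and 257 CPM in WT and 254 and 266 CPM in *Grhl3*-null. *Pax6*, a homeodomain factor of intermediate progenitor domains, was at 98.7 and 105 CPM in WT and 132 and 125 CPM in *Grhl3*-null. The ventral cells held 17.3% and 18.2% of all *Nkx6-1* UMIs of the filtered cells in WT and 33.2% and 35.5% in *Grhl3*-null, so most *Nkx6-1* UMIs lay in cells outside the rule.

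At the edge of the rule, 56 ventral cells held a single *Nkx6-1* UMI and 101 neural cells failed only because they held none. A single *Pax3* UMI alone kept out 25 further cells, and any number of *Pax3* UMIs alone kept out 72. Of the ventral cells, 113 held 1 UMI of *Nkx1-2*, and 61 cells failed only by holding 2. Likewise 82 cells failed only by 1 UMI of *T*. The *Sox2* limit separated 15 ventral cells at 2 UMIs from 16 cells at 1 UMI, and the neural sum separated 21 cells at 3 UMIs from 31 cells at 2.

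Markers that the rule did not use were those of trunk neural cells. *Sox3*, a neural progenitor factor, was at 93.6 and 81.5 CPM in WT and 86.3 and 74.5 CPM in *Grhl3*-null, and *Hes5*, a Notch target, was at 277 and 209 CPM in WT and 224 and 230.1 CPM in *Grhl3*-null. *Hoxb9*, a gene of the trunk, was at 314 and 309 CPM in WT and 325 and 295 CPM in *Grhl3*-null. Marker lists of other cell types were not empty in ventral cells. Of 16 genes of the hindbrain, midbrain and forebrain 11 had a UMI, summing to 49.5, 44.7, 40.1 and 43.5 CPM over the 4 libraries with *Gbx2* most abundant, while *Six3* and *En1* were among those at 0. Of 9 notochord genes 8 had a UMI (34.8, 45.6, 63.4 and 81.4 CPM), led by *Foxa2*, which the floor plate shares, and *Noto* was at 0. Of 12 surface ectoderm genes 10 had a UMI (132, 199.7, 199.7 and 269 CPM), led by *Pdgfa*, and *Dlx5* and *Trp63* were at 0. Of 7 neural crest genes 4 had a UMI (10.9, 10.2, 12.9 and 15.4 CPM), led by *Sox9*, and the defining markers *Sox10*, *Foxd3* and *Tfap2b* were at 0. Of 11 somitic genes 10 had a UMI, led by *Aldh1a2*, and *Msgn1* was at 0. The median ventral cell held 32218.5 and 35323 UMIs in WT and 33185 and 30988 in *Grhl3*-null, and 5606.5, 5782, 5641 and 5626 genes, so depth was close across libraries.

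A small number of ventral cells also carried gut endoderm transcripts. The 10 gut genes listed (*Sox17*, *Foxa1*, *Epcam*, *Cldn6*, *Trh*, *Krt8*, *Krt18*, *Cdh1*, *Spink1* and *Gata6*) summed to 91.1, 404, 234 and 251 CPM in the 4 libraries, with *Spink1* as the most abundant and none of them at 0. In 9 ventral cells, 2, 2, 3 and 2 by library, these genes held over 20 UMIs, with a median of 233 against 1 UMI in the other 409. These 9 cells held a median of 79100 UMIs against 32041 in the others, contained 76.7% of the gut UMIs of all ventral cells, and 8 of them also held *Foxa2*. A doublet caller marked 2 of the 9 and 2 of the others. Whether they were doublets was not tested further, and results that rest on them are given with and without them. Across libraries 62 pairs of deposited cells, taken before filtering, shared a cell barcode, of which 3 involved a ventral cell.

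Between 45.5% and 52.2% of the neural cells of each library were ventral. They were 70 of 134 (52.2%, 95% Clopper-Pearson interval 43.4 to 60.9) and 62 of 123 (50.4%, 41.2 to 59.5) neural cells in the WT libraries. In the *Grhl3*-null libraries they were 127 of 279 (45.5%, 39.6 to 51.6) and 159 of 320 (49.7%, 44.1 to 55.3). The means were 51.3% ± 1.30 (SD, n = 2) and 47.6% ± 2.95 (SD, n = 2), and the exact permutation test gave p = 0.333, the smallest that 2 against 2 libraries allow. The mean difference of -3.72 percentage points changed sign when neural cells were thinned to 7500 UMIs each before *Nkx6-1* and *Pax3* were counted. Which cells were neural was still decided from all their UMIs. The shares were then 35.8% and 33.3% in WT and 34.8% and 38.8% in *Grhl3*-null. The difference also changed sign with at least 2 UMIs of *Nkx6-1* required, at 43.3% and 38.2% in WT and 41.9% and 43.8% in *Grhl3*-null. The difference was larger, and negative as in the main result, within each sex as called from Y-linked genes and *Xist* UMIs. Among male neural cells the shares were 66.7% and 62.5% in WT, from 6 and 5 ventral cells, and 46.3% and 51.4% in *Grhl3*-null, and among female neural cells 51.7% and 50.0% in WT and 41.4% and 31.3% in *Grhl3*-null (mean differences of -15.7 and -14.5 points, exact permutation test, p = 0.333 for both).

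As a share of all filtered cells, by contrast, ventral cells were more frequent in both *Grhl3*-null libraries than in either WT library. The shares were 1.28% and 1.21% in WT and 2.62% and 3.33% in *Grhl3*-null. The means of 1.25% ± 0.0498 and 2.97% ± 0.497 (SD, n = 2 each) differed 2.38-fold (exact permutation test, p = 0.333). Dorsal cells moved with them, from 39 and 28 cells in WT to 91 and 107 in *Grhl3*-null, and so did neural cells as a whole.

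The ventral cells of the genotypes came largely from embryos of opposite sex. Cells were called male from at least 2 UMIs over the Y-linked genes *Ddx3y*, *Uty*, *Kdm5d* and *Eif2s3y* with at most 2 UMIs of *Xist*, and female from at least 3 UMIs of *Xist* with at most 1 Y-linked UMI. Of the ventral cells that could be called, 6 of 66 and 5 of 56 (9.09% and 8.93%) were male in WT, and 93 of 105 and 126 of 131 (88.6% and 96.2%) were male in *Grhl3*-null. The filtered cells of the same libraries were 26.5% and 27.0% male in WT and 55.6% and 57.5% male in *Grhl3*-null. The excess of ventral cells was present among male cells, of which 0.477% and 0.415% were ventral in WT and 4.08% and 5.48% in *Grhl3*-null. It was absent among female cells, where the shares were 1.72% and 1.56% in WT and 0.659% and 0.294% in *Grhl3*-null. Only 11 WT ventral cells were called male and only 17 *Grhl3*-null ventral cells female, so sex could be told apart from genotype only in small part. The embryo a cell came from cannot be told apart from genotype in these pools.

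**Figure D1:**
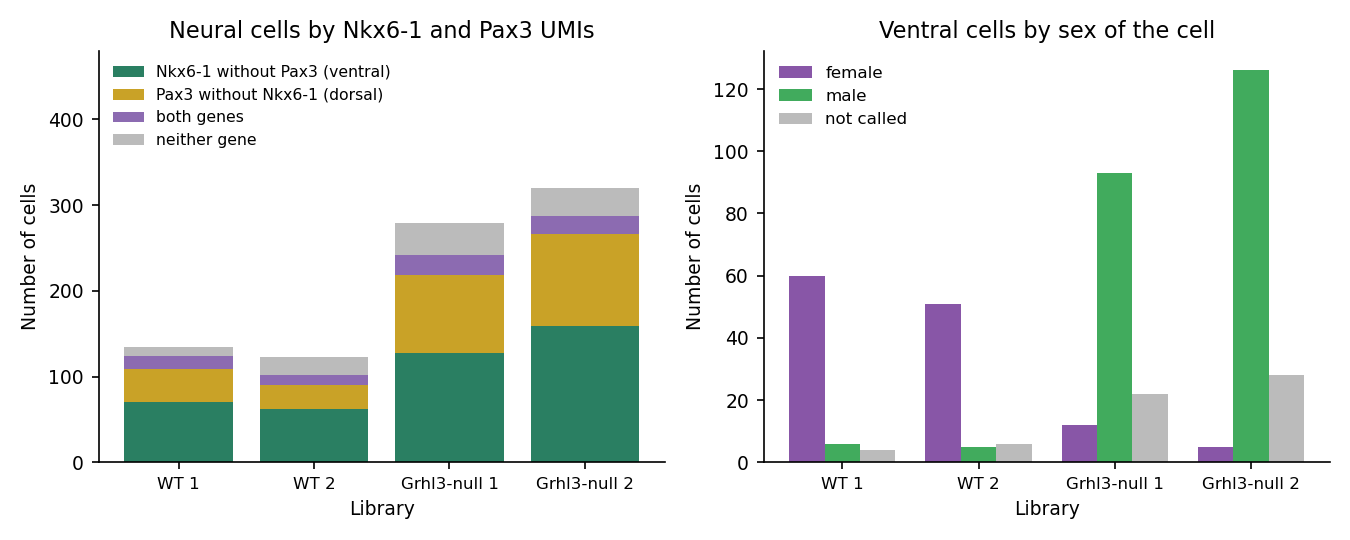
The left panel stacks the number of neural cells in each library by their *Nkx6-1* and *Pax3* UMIs, and the right panel gives the ventral cells called female, male or neither. Ventral cells number 70 and 62 in WT and 127 and 159 in *Grhl3*-null, and they are mostly female in WT and mostly male in *Grhl3*-null.

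The first comparison asked which genes other than those of the rule separated ventral from dorsal cells within the same libraries. Raw UMIs were summed per library and class and tested with edgeR, with the library as a block. Of 10382 genes tested, 385 (3.71%) were higher and 292 (2.81%) lower in ventral cells at an adjusted p under 0.05, and 138 and 117 of these differed at least 2-fold. Most ventral domain factors tested were among the first group, as were the Hedgehog targets described below and some genes of neuronal differentiation, and most dorsal domain factors tested were among the second, with some WNT genes.

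Of 22 listed ventral domain genes, 15 were tested and 10 were higher in ventral cells. Their median log2 fold change was 1.64, against -0.00 over all genes tested, and was the same with *Olig1* set to its bound. *Olig2* (chr16:91225457-91228677, plus strand), the factor of motor neuron progenitors, was at 43.2 and 52.1 CPM in WT and 106 and 83.5 CPM in *Grhl3*-null in ventral cells. Dorsal cells held 2 *Olig2* UMIs in all, and the ratio of summed levels was 395 (95% counting interval 109 to 3267). Every ventral library thus stood far above every dorsal library, and within ventral cells both *Grhl3*-null libraries stood above both WT libraries. *Olig1*, its neighbour and relative, was at 1.26 and 2.79 CPM in WT and 5.01 and 4.94 CPM in *Grhl3*-null in ventral cells and had no UMI in dorsal cells, so that it was at least 13.4-fold higher with 3 UMIs over the group as the floor.

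The floor plate and the domain next to it were also represented. *Foxa2* (chr2:148042877-148046969, minus strand), a forkhead factor of the floor plate and endoderm, was at 22.2 and 27 CPM in WT and 30.7 and 40.7 CPM in *Grhl3*-null in ventral cells and at 0.728, 0, 0.278 and 0.522 CPM in dorsal cells of the same libraries (log2 fold change 6.22 ± 0.29 (SE), adjusted p = 7.05e-13). *Nkx2-9*, a homeodomain factor of the domain beside the floor plate, was at 18.5 and 22.3 CPM in WT and 20.9 and 28.3 CPM in *Grhl3*-null, against 1 UMI in all dorsal cells, a ratio of 234 (95% counting interval 41.7 to 9270.4). *Shh* (chr5:28456815-28467256, minus strand), the ligand itself, was low, at 2.099 and 0 CPM in WT and 7.63 and 11.8 CPM in *Grhl3*-null. The dorsal cells held 2 *Shh* UMIs, and the ratio was 35.4 (95% counting interval 9.56 to 296). Without the 9 gut-rich cells 59 of the 102 ventral *Shh* UMIs remained, and *Shh* was at 1.31 and 0 CPM in WT and 4.63 and 7.12 CPM in *Grhl3*-null, with a ratio of 21.2 (95% counting interval 5.604 to 179). *Shh* was thus at 0 in the ventral cells of a WT library and highest in those of a *Grhl3*-null library.

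Among the other ventral factors, *Nkx6-2*, a relative of *Nkx6-1*, was at 4.198 and 4.19 CPM in WT and 10.7 and 12.5 CPM in *Grhl3*-null, against 3 dorsal UMIs. *Ntn1*, the axon guidance cue netrin 1 of the floor plate, was at 33.6 and 27.9 CPM in WT and 40.5 and 48.1 CPM in *Grhl3*-null in ventral and 14.6, 25.3, 20.3 and 16.2 CPM in dorsal cells (log2 fold change 1.11 ± 0.15 (SE), adjusted p = 1.67e-05), a call that was lost in the WT libraries alone. *Spon1*, the floor plate matrix protein F-spondin, was at 35.7 and 32.6 CPM in WT and 49.05 and 48.9 CPM in *Grhl3*-null (log2 fold change 1.64 ± 0.12 (SE), adjusted p = 1.58e-09). The ranges of *Ntn1* came close, with the highest dorsal library just under the lowest ventral library, while those of *Spon1* were well apart. The Iroquois factors of intermediate domains went both ways, *Irx1* being higher (0.56 ± 0.09) and *Irx5* (-0.62 ± 0.10) and *Irx3* (-0.32 ± 0.07) lower in ventral cells on the log2 scale. Without *Grhl3*-null replicate 1 the call of *Irx3* was lost (-0.24, adjusted p = 0.201).

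**Figure D2:**
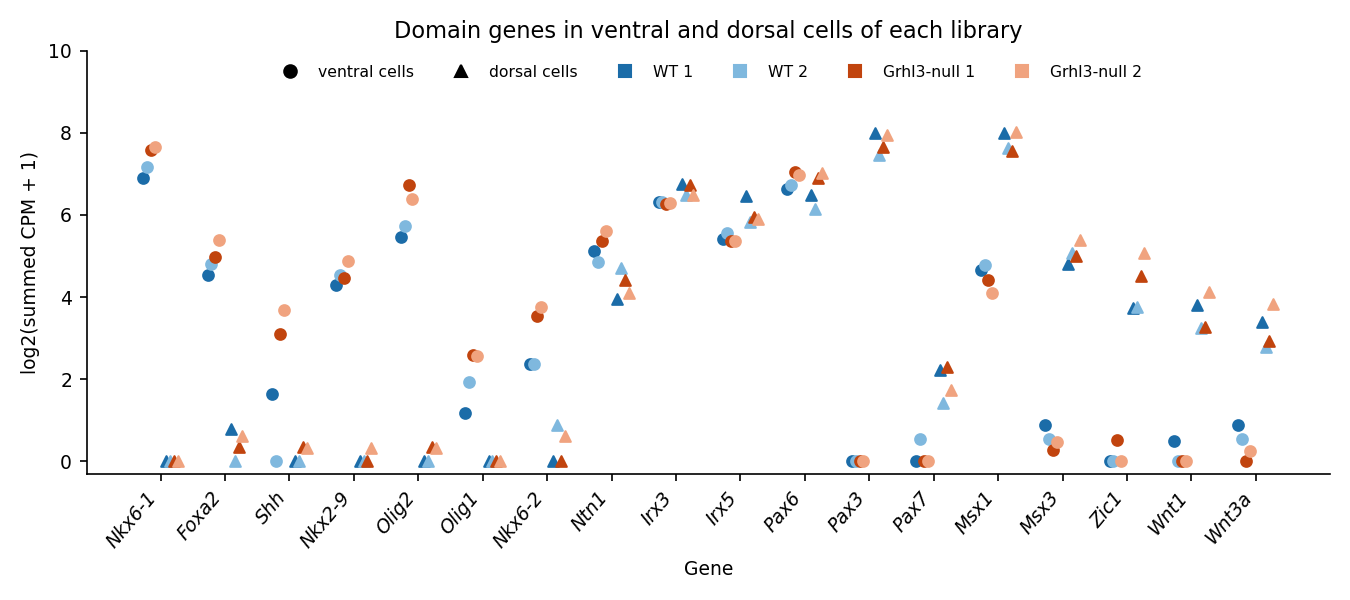
Each point is the summed level of a gene, as log2(CPM + 1), in the ventral (circles) or dorsal (triangles) cells of 1 library, coloured by library. *Nkx6-1*, *Pax3* and *Pax6* belong to the rule; *Olig2*, *Nkx2-9* and *Foxa2* lie high in all 4 ventral sums and near 0 in the dorsal sums, and *Msx3*, *Zic1* and *Wnt1* show the reverse.

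No dorsal domain gene was higher in ventral cells by edgeR, DESeq2 or an unadjusted p under 0.05. Of 25 listed genes 18 were tested and 14 were lower, with a median log2 fold change of -1.76. *Msx1*, a BMP-induced homeodomain factor, was at 24.3 and 26.5 CPM in WT and 20.3 and 16.2 CPM in *Grhl3*-null in ventral and 255, 197, 188 and 259 CPM in dorsal cells (log2 fold change -3.45 ± 0.11 (SE), adjusted p = 2.63e-16). *Msx3*, a homeodomain factor of the dorsal neural tube, was the most strongly lowered of the genes at 10 CPM or more, at 0.8396, 0.466, 0.218 and 0.3803 CPM in ventral and 26.9, 32.9, 31.2 and 40.7 CPM in dorsal cells (log2 fold change -6.22 ± 0.27 (SE), adjusted p = 1.62e-13). The ventral and dorsal libraries did not overlap for either gene. *Zic1* held 2 UMIs in all ventral cells against 235 in dorsal cells, a ratio of 169 (95% counting interval 46.3 to 1405). *Wnt1* and *Pax7* held 1 ventral UMI each. The BMP-responsive genes *Id1*, *Id2* and *Id3* were lower by smaller amounts, with log2 fold changes of -0.55 ± 0.07, -1.07 ± 0.07 and -0.56 ± 0.04 (SE).

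Hedgehog genes split by role. Of 20 listed genes 19 were tested, 5 were higher and 5 lower in ventral cells, and the median log2 fold change was 0.00. The list also held *Prdx2*, a peroxiredoxin gene that is not part of the pathway. Feedback targets of the pathway were among the genes that were higher. *Ptch1* (chr13:63508328-63573598, minus strand), the receptor and a direct target, was at 264 and 215 CPM in WT and 313 and 385 CPM in *Grhl3*-null in ventral and 57.5, 58.2, 75.5 and 74.4 CPM in dorsal cells (log2 fold change 2.18 ± 0.07 (SE), adjusted p = 1.80e-16). *Gli1*, the activator that the pathway induces, was at 38.2 and 24.7 CPM in WT and 35.1 and 47.3 CPM in *Grhl3*-null in ventral and 21.1, 11.8, 19.2 and 22.2 CPM in dorsal cells (log2 fold change 0.98 ± 0.12 (SE), adjusted p = 3.22e-06). *Hhip*, a ligand-binding inhibitor, was higher by 2.52 ± 0.33 (SE) on the log2 scale. Ventral and dorsal libraries did not overlap for *Ptch1* or *Gli1*.

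The co-receptors, the ligand-releasing protein and the repressor were lower. *Gas1*, a co-receptor that the pathway represses, was at 73.9 and 64.2 CPM in WT and 67.1 and 74.5 CPM in *Grhl3*-null in ventral and 175, 165, 169.6 and 198 CPM in dorsal cells (log2 fold change -1.35 ± 0.06 (SE), adjusted p = 6.33e-13). *Boc* and *Cdon*, co-receptors as well, had log2 fold changes of -1.51 ± 0.18 and -1.37 ± 0.19 (SE). *Scube2*, which aids release of the ligand, had -1.42 ± 0.14, and *Gli3*, the main repressor of the family, -0.85 ± 0.09. The transducers *Smo* (0.09, adjusted p = 0.629) and *Sufu* (0.08, adjusted p = 0.841) and the effector *Gli2* (-0.01, adjusted p = 0.987) did not pass the test. The call of *Boc* was lost in the WT libraries alone.

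**Figure D3:**
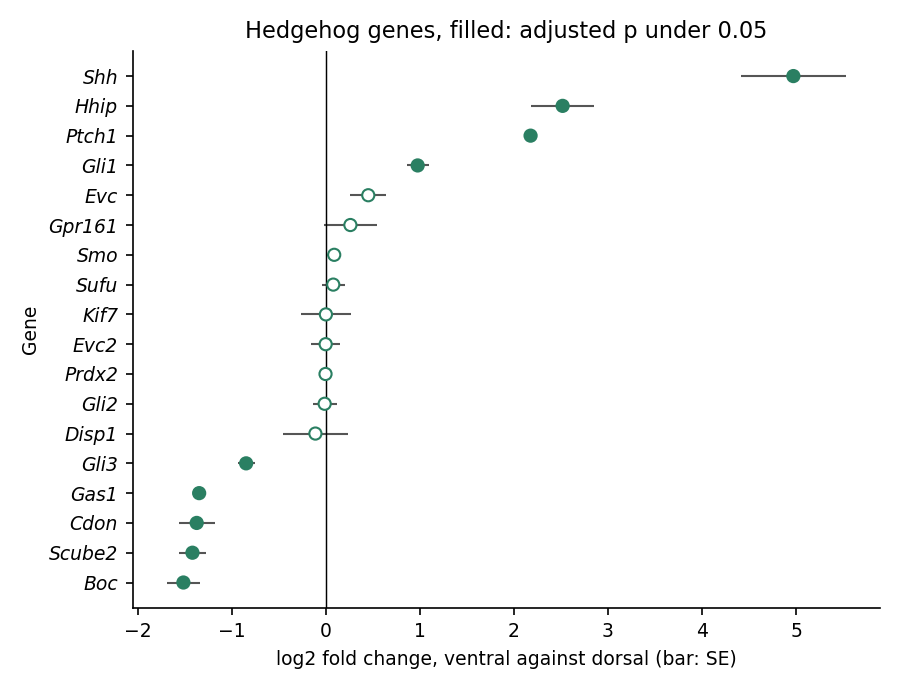
Points are log2 fold changes of ventral against dorsal cells for 18 of the 19 genes tested from the Hedgehog list, with bars of 1 SE, and filled points passed an adjusted p of 0.05. *Shh*, *Hhip*, *Ptch1* and *Gli1* lie to the right of 0 and *Boc*, *Scube2*, *Cdon*, *Gas1* and *Gli3* to the left.

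Neuronal differentiation genes were higher ventrally where they differed. Of 30 listed genes 18 were tested, 8 were higher (4 by DESeq2), and none was lower by edgeR, DESeq2 or an unadjusted p under 0.05. *Neurog2*, a proneural factor, was at 54.2 and 54.9 CPM in WT and 48.8 and 36.1 CPM in *Grhl3*-null in ventral and 29.8, 21.1, 9.47 and 17.2 CPM in dorsal cells (log2 fold change 1.43 ± 0.16 (SE), adjusted p = 1.55e-06). *Elavl4*, an RNA-binding protein of new neurons, was at 27.3 and 27.9 CPM in WT and 30.7 and 28.7 CPM in *Grhl3*-null in ventral and 6.55, 11.8, 4.73 and 6.52 CPM in dorsal cells (log2 fold change 2.14 ± 0.18 (SE), adjusted p = 1.94e-08). The Notch ligand *Dll1* (0.74 ± 0.13) and the Notch target *Hes5* (1.68 ± 0.08) were higher as well. *Mnx1*, a motor neuron factor, was low, at 5.46, 1.397, 5.23 and 5.51 CPM in ventral cells, and its call was lost without WT replicate 1 (adjusted p = 0.0538), without *Grhl3*-null replicate 1 (0.0948) and without *Grhl3*-null replicate 2 (0.257). *Tubb3*, the tubulin of postmitotic neurons, was at 10.1, 15.8, 7.85 and 10.1 CPM and did not pass the test (0.24, adjusted p = 0.695).

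General neural progenitor genes differed too. Of 22 listed, 21 were tested, 12 were higher (8 by DESeq2) and 2, *Ptn* and *Fgfbp3*, were lower. *Hes5* was at 57.5, 60.7, 77.7 and 80.1 CPM in dorsal cells, far under each ventral level given above, and *Sox3* (1.25 ± 0.08) and *Ccnd2*, a cyclin of progenitors (0.79 ± 0.03), were also higher. In the cell cycle list of 22 genes, all tested, *Ccnd2*, *Mki67*, *Cenpf* and *Ccnb1* were higher (1 of them by DESeq2) and *Ccnd1* was lower, at 262, 259, 257 and 253 CPM in ventral and 453, 449.5, 348 and 352 CPM in dorsal cells (log2 fold change -0.59 ± 0.05 (SE), adjusted p = 4.14e-08). The call of *Cenpf* was lost without WT replicate 1 (adjusted p = 0.0525), and that of *Ccnb1* on leaving out any of the 4 libraries (0.0553 to 0.204).

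In the WNT, retinoic acid and FGF lists more genes were called lower than higher in ventral cells, a balance that was not tested. Of 37 listed WNT genes 31 were tested, 6 were higher and 13 lower. *Sp5*, a direct WNT target, was at 7.14 and 6.98 CPM in WT and 6.32 and 5.89 CPM in *Grhl3*-null in ventral and 49.5, 26.99, 40.7 and 42.8 CPM in dorsal cells (log2 fold change -2.66 ± 0.15 (SE), adjusted p = 2.28e-11). *Axin2*, a feedback target, had a log2 fold change of -1.25 ± 0.15 and the ligand *Wnt4* one of -2.48 ± 0.16. The receptor *Fzd7* (0.97 ± 0.10), the antagonist *Sfrp1* (0.79 ± 0.09) and the mediator *Tcf7l2* (1.18 ± 0.11) were higher. In the retinoic acid list, 14 of 17 genes were tested, *Crabp1*, *Aldh1a2* and *Cyp26a1* were lower and the receptor *Rarb* higher (2 and 0 by DESeq2). *Crabp1*, a retinoic acid binding protein, was at 38.6, 52.6, 38.6 and 38.98 CPM in ventral and 64.8, 110.5, 146 and 151 CPM in dorsal cells (log2 fold change -1.62 ± 0.13 (SE), adjusted p = 3.03e-09). Without *Grhl3*-null replicate 1 the call of *Rarb* was lost (0.68, adjusted p = 0.0535). Of 17 FGF genes tested from a list of 19, *Fgfr3* was higher and *Fgf3*, *Fgf15* and *Fgfr2* were lower (0 and 2 by DESeq2). *Fgf3* and, from the retinoic acid list, *Cyp26a1* lost their calls without *Grhl3*-null replicate 1 (adjusted p = 0.208 and 0.0742) and without *Grhl3*-null replicate 2 (0.0801 and 0.053). *Fgfr3* lost its call without *Grhl3*-null replicate 1 (0.55, adjusted p = 0.367) and without *Grhl3*-null replicate 2 (0.72, adjusted p = 0.248).

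Of 20 caudal progenitor genes tested from a list of 22, 4 were higher (*Lix1*, *Foxb1*, *Cdx2* and *Stmn2*) and 6 lower (*Wnt3a*, *Sp5*, *Nkd1*, *Hes3*, *Cyp26a1* and *Cdx4*), against 1 and 4 by DESeq2. *Lix1* had a log2 fold change of 0.75 ± 0.13, *Cdx2* one of 0.55 ± 0.11 and *Hes3* one of -1.49 ± 0.11. The calls of *Lix1* and *Cdx2* were lost with DESeq2 and without the library block. That of *Lix1* was also lost in the WT libraries alone, and that of *Cdx2* in the *Grhl3*-null libraries alone. The call of *Cdx4* was lost on leaving out WT replicate 1 (adjusted p = 0.126), *Grhl3*-null replicate 1 (0.2) and *Grhl3*-null replicate 2 (0.0973), and that of *Stmn2* on leaving out WT replicate 1 (0.34, adjusted p = 0.162) and *Grhl3*-null replicate 2 (0.29, adjusted p = 0.451) and in the libraries of either genotype alone (0.078 and 0.0556).

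*Hox* genes, which encode position along the body axis, were lower or not called. Of 39 listed, 27 were tested, none was higher by edgeR, DESeq2 or an unadjusted p under 0.05, and 10 were lower in ventral cells (3 by DESeq2), with a median log2 fold change of -0.23. *Hoxb9* was at 409.6, 405, 385 and 363 CPM in dorsal cells, above the ventral levels given earlier in every library (log2 fold change -0.31 ± 0.04 (SE), adjusted p = 1.13e-05). *Hoxb6* (-0.84 ± 0.14) and *Hoxd1* (-1.28 ± 0.23) had larger differences, but the call of *Hoxd1* was lost with DESeq2 and in the WT libraries alone. Calls of *Hoxa9* and *Hoxc9* were lost without WT replicate 1 (adjusted p = 0.0616 and 0.0525) and without *Grhl3*-null replicate 2 (0.0875 and 0.122).

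Among 41 genes of neural tube closure other than *Pax3*, 37 were tested, 5 were higher and 6 were lower (0 and 2 by DESeq2). The planar cell polarity genes *Vangl1* (0.66 ± 0.11), *Celsr2* (0.53 ± 0.14), *Prickle1* and *Vangl2* (0.31 ± 0.08) and the actin-binding gene *Marcks* were higher, and *Nog*, a BMP antagonist (-2.39 ± 0.19), *Bmp2*, *Dact1*, *Epha7*, *Cited2* and *Grhl3* itself were lower. The call of *Grhl3* rested on 2 ventral and 15 dorsal UMIs, all in WT libraries, and was lost with DESeq2 (-2.28) and without a filter on low counts (-3.31, adjusted p = 0.0766). The call of *Vangl1* was lost with DESeq2 (adjusted p = 0.0593) and in the WT libraries alone (0.46, adjusted p = 0.418). Without *Grhl3*-null replicate 2 the calls of *Celsr2*, *Vangl2*, *Prickle1*, *Marcks*, *Dact1*, *Epha7* and *Cited2* were lost (adjusted p = 0.466, 0.534, 0.139, 0.117, 0.0687, 0.191 and 0.0691). Without *Grhl3*-null replicate 1 those of the same genes but *Cited2* were lost (adjusted p = 0.158, 0.123, 0.0576, 0.115, 0.0765 and 0.199), and without WT replicate 1 that of *Prickle1* (0.119). Of 28 adhesion genes other than *Nrcam*, 23 were tested, 7 were higher and 3 lower (3 and 1 by DESeq2). *Itga6*, a laminin receptor subunit, was at 75.98, 73.1, 94.4 and 100.2 CPM in ventral and 32.01, 38.8, 35.9 and 36.3 CPM in dorsal cells (log2 fold change 1.33 ± 0.09 (SE), adjusted p = 3.80e-10). *Cdh11*, a cadherin of mesenchyme and dorsal neural cells, was at 4.198, 5.59, 5.67 and 7.42 CPM and 24.7, 26.99, 28.7 and 29.5 CPM (log2 fold change -2.21 ± 0.16 (SE), adjusted p = 1.29e-09).

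Markers of other cell types lay on both sides. All 6 somitic genes tested were lower in ventral cells (1 by DESeq2), where the 11 listed genes summed to 47.0, 25.1, 47.7 and 101 CPM against 76.4, 337, 289 and 218 CPM in dorsal cells, with *Aldh1a2* most abundant in both. Of 5 neural crest genes tested 4 were lower, and *Foxd3* and *Tfap2b* were at 0 in ventral cells against 221 and 164 dorsal UMIs. Of 10 genes tested from the surface ectoderm list *Dlx5*, *Tfap2c*, *Tfap2a*, *Grhl3* and *Wnt6* were lower in ventral cells. *Dlx5* held 0 ventral against 105 dorsal UMIs and *Tfap2c* 1 against 121. *Krt8*, *Krt18* and *Epcam*, which the gut list shares, were higher. The paper on these embryos places *Tfap2c* and *Grhl3* at E8.5 in the neural plate border and not in surface ectoderm. It also reports weaker *Grhl3* expression in neuroepithelium at this stage. The part of border or surface ectoderm cells in the result was not tested. Endothelial genes summed to 22.7, 30.7, 34.7 and 21.5 CPM in ventral cells and erythroid genes, led by *Hba-x*, to 36.1, 34.5, 28.1 and 32.7 CPM, and none of the 3 and 4 tested was called.

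All 6 visceral endoderm genes tested and 8 of 9 gut genes tested were higher in ventral cells (1 and 7 by DESeq2). The leading genes were *Spink1*, a protease inhibitor (1.68, 262, 76.1 and 32.9 CPM in ventral cells), *Ttr*, the carrier transthyretin (4.62, 267, 78.3 and 21.9 CPM), and *Apom*, an apolipoprotein (1.68, 142, 32.7 and 5.704 CPM). Their levels differed widely among ventral libraries and were highest in WT replicate 2. Without the 9 gut-rich ventral cells and their dorsal counterparts, *Ttr* (-0.94, adjusted p = 0.365), *Rbp4* (-0.67, adjusted p = 0.359), *Krt8* (-0.53, adjusted p = 0.359), *Krt18* (-0.44, adjusted p = 0.335) and *Epcam* (-0.46, adjusted p = 0.649) lost their calls and changed sign, and *Spink1* lost its call. The adhesion genes higher in ventral cells then numbered 3, the gut genes 1 and the visceral endoderm genes 0. Counts for the ventral domain, Hedgehog and dorsal domain genes were 9, 5 and 0 higher and 2, 5 and 14 lower without these cells, close to the values above. *Car4*, a carbonic anhydrase, and *Apln*, the peptide apelin, were also among the 10 largest increases, and *Apln* was present in 46%, 50%, 54% and 58% of ventral cells, at 21.4, 23.7, 25.3 and 36.7 CPM against 3.64, 5.06, 4.46 and 3.91 CPM in dorsal cells (log2 fold change 2.76 ± 0.19 (SE), adjusted p = 4.63e-10).

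Within the ventral cells, domain genes divided the population. At least 1 UMI of *Olig2* was found in 225 of 418 cells (53.8%), of *Foxa2* in 94 (22.5%), of *Nkx2-9* in 92 (22.0%) and of *Shh* in 20 (4.78%). *Foxa2* and *Olig2* were found together in 61 cells, *Foxa2* alone in 33, *Olig2* alone in 164 and neither in 160. *Nkx2-9* overlapped with *Foxa2* in 65 cells, which were 70.7% of the *Nkx2-9* cells and 69.1% of the *Foxa2* cells. Of the 20 *Shh* cells 19 held *Foxa2* and 5 were gut-rich. Since these shares count cells with a UMI, an absent UMI does not show that a cell lacked the transcript.

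Levels in these classes are given as a description without a test, since the classes were made from the same cells. The 9 gut-rich cells were left out, and means and SDs are over the 4 libraries, given for *Foxa2* cells, then *Olig2* cells without *Foxa2*, then cells with neither. *Ptch1* was at 616 ± 154, 269.9 ± 49.1 and 130.2 ± 16.2 CPM, and *Hhip* at 25.4 ± 1.66, 8.497 ± 5.87 and 1.62 ± 0.834 CPM. The mean level of both genes was highest in the *Foxa2* cells and lowest in the cells with neither gene. *Gli1*, at 39.6 ± 17.6, 41.5 ± 5.65 and 30.96 ± 8.13 CPM, showed no such steps beyond its spread, nor did *Smo*, at 80.5 ± 20.3, 91.4 ± 6.46 and 87.4 ± 9.29 CPM, or *Gli2*, at 23.1 ± 10.2, 26.9 ± 5.25 and 21.9 ± 2.56 CPM. The mean of *Gas1* was lowest in the *Foxa2* cells, at 58.3 ± 11.5, 75.8 ± 3.38 and 75.1 ± 8.94 CPM. This did not hold in every library, as WT replicate 1 had *Gas1* at 72.2 CPM in *Foxa2* cells and 71.4 CPM in *Olig2* cells without *Foxa2*. *Nkx6-1* was at 237 ± 63.2, 200.1 ± 36.4 and 101 ± 22.5 CPM, and *Pax6* ran the other way, at 51.01 ± 13.5, 103 ± 25.4 and 176 ± 33.9 CPM. *Irx3*, a factor of more dorsal progenitors, was likewise lowest in *Foxa2* cells, at 34.3 ± 21.5, 76.3 ± 8.22 and 116 ± 15.7 CPM, as was *Irx5*, at 9.59 ± 3.42, 40.2 ± 7.62 and 68.4 ± 6.88 CPM. *Dll1* was at 7.58 ± 2.995, 32.01 ± 7.19 and 35.4 ± 14.3 CPM, lowest in the *Foxa2* cells. Median depth was 33892.5 UMIs in all *Foxa2* cells, 32406 in *Olig2* cells without *Foxa2* and 30945 in cells with neither.

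The share of ventral cells with *Olig2* was higher in both *Grhl3*-null libraries than in both WT libraries. It was 28 of 70 (40.0%, 95% interval 28.5 to 52.4) and 28 of 62 (45.2%, 32.5 to 58.3) in WT, and 77 of 127 (60.6%, 51.6 to 69.2) and 92 of 159 (57.9%, 49.8 to 65.6) in *Grhl3*-null. With every cell thinned to 7500 UMIs the shares were 24.3% and 24.2% in WT and 47.2% and 37.7% in *Grhl3*-null. In endothelial cells, which should lack *Olig2*, they were 0%, 0.382%, 0.239% and 1.01% at medians of 43378, 43391.5, 40632 and 40237 UMIs, far under the ventral shares. By the floor of 3 used for a count of 0, which is not a 95% interval, the 0 of 269 cells allows a share of up to 1.12%.

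The shares of the other domain genes were lower. *Foxa2* was found in 25.7%, 16.1%, 20.5% and 25.2% of ventral cells and *Nkx2-9* in 22.9%, 21.0%, 20.5% and 23.3%, with overlapping ranges in the genotypes. *Nkx6-2* was found in 8.57% and 9.68% in WT and 19.7% and 17.6% in *Grhl3*-null, but after thinning in 5.71%, 1.61%, 6.30% and 9.43%. *Nkx2-2* was found in 2 of 70, 0 of 62, 10 of 127 and 10 of 159 cells. A floor of 3 cells puts 0 of 62 at up to 4.84%, and its 95% Clopper-Pearson interval reaches 5.78%. *Shh* was found in 4.29% and 0% in WT and 4.72% and 6.92% in *Grhl3*-null, beside 2.97%, 1.15%, 2.39% and 3.29% of endothelial cells. The 95% intervals of ventral and endothelial cells overlapped in every library, while dorsal cells, at median depths close to those of ventral cells, held *Shh* in 0%, 0%, 1.10% and 0.935%.

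**Figure D4:**
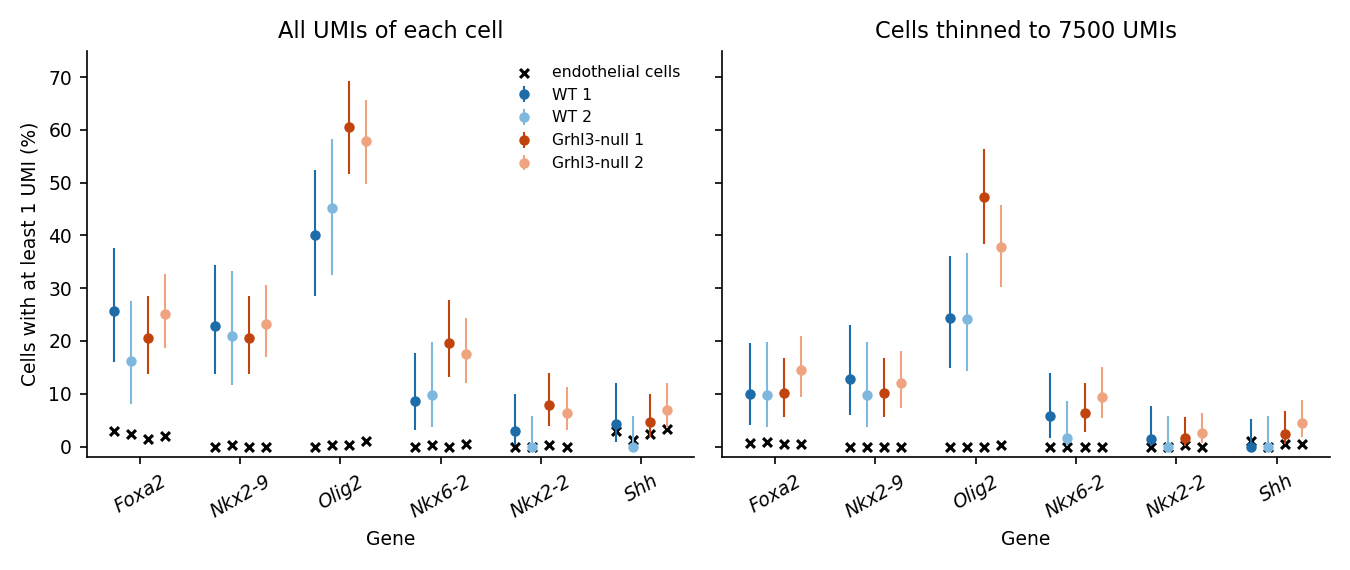
Points are the percentage of ventral cells with at least 1 UMI of each gene by library, with 95% Clopper-Pearson bars, from all UMIs (left) or after thinning to 7500 UMIs per cell (right), and crosses are the same in endothelial cells. *Olig2* lies higher in both *Grhl3*-null libraries in both panels.

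The second comparison asked which genes differed between genotypes within the ventral cells. Of 10180 genes tested, 69 (0.678%) were higher and 69 (0.678%) lower in *Grhl3*-null at an adjusted p under 0.05, of which 21 and 19 differed at least 2-fold. Among genes of ventral identity, *Olig2*, *Nkx6-2*, *Shh* and *Ptch1* rose. Among genes of caudal progenitors and of the posterior *Hox* groups, *Cdx2*, *Cdx4*, *Fgf17*, *Hoxa9*, *Hoxc9* and *Hoxc10* fell. The mesenchymal genes *Tbx4* and *Hand1*, described below, fell as well, from low levels. Genes near *Grhl3* on chromosome 4 and genes that differ between the sexes were also prominent. Because WT ventral cells were mostly female and *Grhl3*-null ventral cells mostly male, values by sex, from UMIs summed over the 2 libraries of a genotype and without a test, are given beside the main genes. They rest on 11 WT male, 111 WT female, 219 *Grhl3*-null male and 17 *Grhl3*-null female cells, and a direction is given only where the exact 95% Poisson intervals, which cover counting error only, did not overlap.

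Of 15 ventral domain genes tested, 3 rose and none fell (8 and 1 at an unadjusted p under 0.05). In this edgeR comparison 1367 of all 10180 genes tested had an unadjusted p under 0.05. The median log2 fold change of the ventral domain genes was 0.50 against 0.00 over all genes tested. *Olig2*, at the ventral levels given above, had a log2 fold change 0.97 ± 0.14 (SE), adjusted p = 0.00544, and the genotypes did not overlap. Without WT replicate 1 its call was lost (0.83, adjusted p = 0.0659). By sex *Olig2* was at 2 UMIs in WT male cells, which is under the floor of 3 UMIs (6.71 CPM in these cells), and at 97.3 CPM in *Grhl3*-null male, 52.5 CPM in WT female and 11.3 CPM in *Grhl3*-null female cells, so it was higher in *Grhl3*-null among male cells and lower among female cells. *Nkx6-2* had a log2 fold change 1.45 ± 0.31 (SE), adjusted p = 0.0458, and *Shh*, with 5 UMIs in all WT ventral cells, a log2 fold change 3.09 ± 0.62 (SE), adjusted p = 0.0334. These WT UMIs of *Shh* were all in WT replicate 1, and its log2 fold change ranged from 2.18 to 8.29 with 1 library left out. The call of *Nkx6-2* was lost on leaving out any of the 4 libraries (adjusted p from 0.137 to 0.341), and that of *Shh* without WT replicate 2 (2.18, adjusted p = 0.128), *Grhl3*-null replicate 1 (3.35, 0.0643) and *Grhl3*-null replicate 2 (2.75, 0.296). *Foxa2* (0.53, adjusted p = 0.186), *Nkx2-9* (0.27, adjusted p = 0.604) and *Ntn1* (0.51, adjusted p = 0.111) did not pass. Without the 9 gut-rich cells 5 ventral domain genes rose, whereas 1 rose with DESeq2 and with any 1 library left out.

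Of 19 genes tested from the Hedgehog list, *Shh* and *Ptch1* rose (neither by DESeq2, with adjusted p of 0.917 and 0.4702), and the median log2 fold change was 0.05. *Ptch1* had a log2 fold change 0.52 ± 0.10 (SE), adjusted p = 0.0237, with WT levels of 264 and 215 CPM below *Grhl3*-null levels of 313 and 385 CPM. Its call was lost without WT replicate 2 (0.38, adjusted p = 0.188) and without *Grhl3*-null replicate 2 (0.38, adjusted p = 0.288). By sex *Ptch1* was at 203 CPM in WT male, 371 CPM in *Grhl3*-null male, 229 CPM in WT female and 190.2 CPM in *Grhl3*-null female cells. *Gli1* (0.37, adjusted p = 0.433) and *Hhip* (-0.00, adjusted p = 0.999) did not pass, and their WT and *Grhl3*-null libraries overlapped.

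Of 17 caudal progenitor genes tested, 5 fell and none rose (9 and 0 at an unadjusted p under 0.05, 2 and 0 by DESeq2), with a median log2 fold change of -0.40. *Cdx2*, a caudal homeobox factor, was at 69.7 and 85.7 CPM in WT and 36.4 and 38.8 CPM in *Grhl3*-null (log2 fold change -1.06 ± 0.11 (SE), adjusted p = 0.000756), and its relative *Cdx4* (chrX:103321398-103330592, plus strand) was at 60.9 and 66.1 CPM in WT and 33.6 and 27.95 CPM in *Grhl3*-null (log2 fold change -1.07 ± 0.12 (SE), adjusted p = 0.000943). Neither overlapped between genotypes. By sex *Cdx2* was at 82.7 CPM in WT male, 36 CPM in *Grhl3*-null male, 72.5 CPM in WT female and 61.3 CPM in *Grhl3*-null female cells, lower in *Grhl3*-null among male cells, while among female cells the intervals (64.2 to 81.7 CPM in WT and 43.4 to 84.1 CPM in *Grhl3*-null) overlapped. *Cdx4* was at 114 CPM in WT male, 25.02 CPM in *Grhl3*-null male, 58.6 CPM in WT female and 82.2 CPM in *Grhl3*-null female cells, lower in *Grhl3*-null among male cells, with overlapping intervals among female cells (51.1 to 66.9 CPM in WT and 61.2 to 108 CPM in *Grhl3*-null). *Fgf17*, an FGF ligand of the tail end, was at 7.56 and 9.78 CPM in WT and 2.18 and 2.47 CPM in *Grhl3*-null (log2 fold change -1.89 ± 0.36 (SE), adjusted p = 0.0244), and *Hes3*, a Hes family repressor of caudal progenitors, at 41.6 and 47.95 CPM in WT and 27.5 and 25.7 CPM in *Grhl3*-null (log2 fold change -0.77 ± 0.13 (SE), adjusted p = 0.0109). *Lix1* fell as well (-0.78 ± 0.17, adjusted p = 0.0451). The call of *Fgf17* was lost on leaving out any of the 4 libraries (adjusted p up to 0.226), that of *Hes3* for each of them but WT replicate 1 (up to 0.148) and that of *Lix1* for each but WT replicate 2 (up to 0.373). *Wnt5a*, a non-canonical WNT ligand of the caudal end, was at 31.1 and 40.5 CPM in WT and 13.5 and 14.6 CPM in *Grhl3*-null (log2 fold change -1.35 ± 0.17 (SE), adjusted p = 0.00175). It was at 42.5 CPM in WT male, 14.6 CPM in *Grhl3*-null male, 31.6 CPM in WT female and 16.1 CPM in *Grhl3*-null female cells.

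The *Hox* genes that fell included 3 of the posterior groups. Of 25 tested, 4 fell and *Hoxa5* rose, with a median log2 fold change of -0.18. *Hoxa9* was at 60.9 and 74.5 CPM in WT and 28.8 and 32.7 CPM in *Grhl3*-null (log2 fold change -1.15 ± 0.12 (SE), adjusted p = 0.000622) and *Hoxc9* at 133 and 128 CPM in WT and 78.3 and 72.3 CPM in *Grhl3*-null (log2 fold change -0.81 ± 0.09 (SE), adjusted p = 0.000861), with no overlap of the genotypes. *Hoxb9*, of the same paralogue group, was at nearly equal levels (log2 fold change -0.02 ± 0.06 (SE), adjusted p = 0.919). *Hoxc10* (chr15:102966796-102971893, plus strand) held 48 UMIs in WT and 1 UMI in *Grhl3*-null ventral cells, a ratio of 104 (95% counting interval 17.9 to 4206), and its call was lost without *Grhl3*-null replicate 2 (adjusted p = 0.107). *Hoxc6* fell by a small amount (-0.53 ± 0.10) and *Hoxa5* rose (0.61 ± 0.13), and the call of *Hoxa5* was lost on leaving out any of the 4 libraries (adjusted p up to 0.321) and that of *Hoxc6* for each of them but WT replicate 1 (up to 0.191).

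Split by sex, *Hoxa9* was at 29.1 CPM in WT male, 31.1 CPM in *Grhl3*-null male, 73.6 CPM in WT female and 17.7 CPM in *Grhl3*-null female cells and *Hoxc9* at 33.5 CPM in WT male, 77.6 CPM in *Grhl3*-null male, 146 CPM in WT female and 17.7 CPM in *Grhl3*-null female cells. Their level was thus lower in *Grhl3*-null among female cells, and among male cells *Hoxa9* was nearly equal and *Hoxc9* higher in *Grhl3*-null. The WT male cells numbered 11, with intervals of 29.1 CPM (15.5 to 49.7) for *Hoxa9* and 33.5 CPM (18.8 to 55.3) for *Hoxc9* from counting alone. Ventral cells without a UMI of any *Hox9* gene numbered 1 of 70 and 1 of 62 in WT and 12 of 127 and 11 of 159 in *Grhl3*-null.

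**Figure D5:**
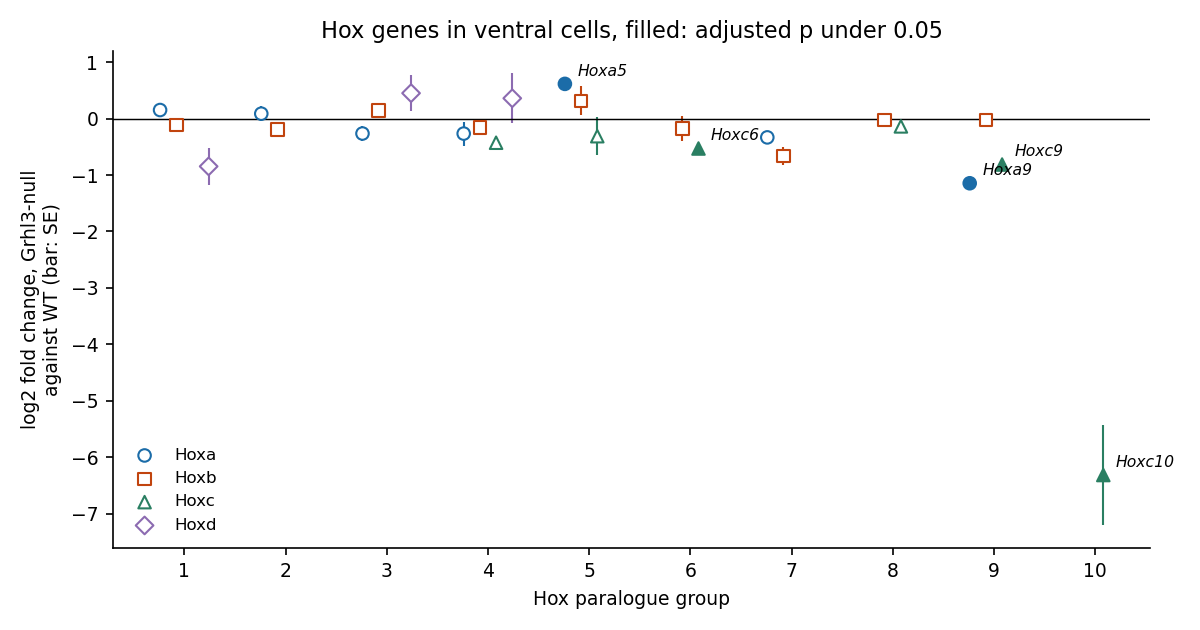
Points are log2 fold changes of *Grhl3*-null against WT in ventral cells for the 25 *Hox* genes tested, by paralogue group (1 to 10) and cluster, with bars of 1 SE, and filled points passed an adjusted p of 0.05. Most genes lie near 0, *Hoxa9* and *Hoxc9* lie below it at -1.15 and -0.81, and *Hoxc10* lies lowest on the basis of 1 UMI in *Grhl3*-null.

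Other lists held few called genes. *Ccnd2*, the progenitor cyclin, was at 1994 and 2002 CPM in WT and 2881 and 2734 CPM in *Grhl3*-null (log2 fold change 0.47 ± 0.04 (SE), adjusted p = 0.000152) and was the only member to rise of the 22 cell cycle genes and of the 20 general neural genes tested. *Cdkn1c*, an inhibitor of cyclin-dependent kinases, was at 196 and 196 CPM in WT and 106 and 129 CPM in *Grhl3*-null (log2 fold change -0.75 ± 0.09 (SE), adjusted p = 0.00124) and was the sole gene to fall of 18 neuronal differentiation genes tested. Neither gene's genotypes overlapped. By sex *Ccnd2* was at 2448 CPM in WT male, 2856 CPM in *Grhl3*-null male, 1961 CPM in WT female and 1738 CPM in *Grhl3*-null female cells, and *Cdkn1c* at 64.8 CPM in WT male, 118 CPM in *Grhl3*-null male, 208 CPM in WT female and 139 CPM in *Grhl3*-null female cells. Both genes were thus higher in *Grhl3*-null among male cells and lower among female cells. *Fgfr3*, an FGF receptor, rose (1.06 ± 0.23), as did the planar cell polarity gene *Celsr2* (0.73 ± 0.14) and the basement membrane collagen *Col4a1* (0.85 ± 0.16), and these calls were lost on leaving out any of the 4 libraries (adjusted p up to 0.283, 0.203 and 0.206), with the exception of *Col4a1* without *Grhl3*-null replicate 2. None of 10 dorsal domain genes, 13 retinoic acid genes, 9 gut genes and 6 visceral endoderm genes tested was called by edgeR. DESeq2 called none of them either. At an unadjusted p under 0.05 there were 4, 3, 6 and 0 such genes, of 1367 over all genes tested.

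The neural regulators *Nr2f1* and *Pou3f3* were among the 10 largest increases. *Nr2f1*, an orphan nuclear receptor, was at 34 and 38.2 CPM in WT and 101 and 96.97 CPM in *Grhl3*-null (log2 fold change 1.44 ± 0.11 (SE), adjusted p = 4.55e-05), and *Pou3f3*, a POU domain factor, at 7.98 and 6.52 CPM in WT and 20.5 and 16.2 CPM in *Grhl3*-null (log2 fold change 1.30 ± 0.26 (SE), adjusted p = 0.0282). Both were higher in both *Grhl3*-null libraries, and the call of *Pou3f3* was lost on leaving out any of the 4 libraries (adjusted p from 0.0843 to 0.185). By sex *Nr2f1* was at 24.6 CPM in WT male, 108 CPM in *Grhl3*-null male, 39.1 CPM in WT female and 12.9 CPM in *Grhl3*-null female cells, higher in *Grhl3*-null among male and lower among female cells. *Nepn*, a secreted proteoglycan, was at 0 and 1.86 CPM in WT and 25.3 and 24.3 CPM in *Grhl3*-null (log2 fold change 4.74 ± 0.45 (SE), adjusted p = 0.000247) but was found in 0%, 3%, 5% and 6% of ventral cells, and without the 9 gut-rich cells it had too few UMIs to be tested. With 1 library left out its log2 fold change ranged from 3.69 to 9.66.

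Among the largest decreases were *Gfra3*, a receptor of the GDNF family, at 29.8 and 44.2 CPM in WT and 13.5 and 13.9 CPM in *Grhl3*-null (log2 fold change -1.44 ± 0.19 (SE), adjusted p = 0.00274), and *Igfbpl1*, a relative of the IGF binding proteins, at 88.6 and 104 CPM in WT and 40.3 and 39.7 CPM in *Grhl3*-null (log2 fold change -1.28 ± 0.11 (SE), adjusted p = 0.000104). Neither gene overlapped between genotypes. The imprinted gene *Phlda2* was at 44.9 and 37.2 CPM in WT and 23.3 and 15.4 CPM in *Grhl3*-null (log2 fold change -1.12 ± 0.19 (SE), adjusted p = 0.0134), and its call was lost without WT replicate 1 (-0.98, adjusted p = 0.124) and without *Grhl3*-null replicate 2 (-0.82, adjusted p = 0.117). The mesenchymal genes *Tbx4* and *Hand1* also fell, from low levels of 5.88, 6.98, 0.436 and 0 CPM and 5.04, 3.72, 0.872 and 0.3803 CPM, and the mesenchyme list summed to 32.3, 28.4, 14.2 and 18.4 CPM, with *Twist1* most abundant and no listed gene at 0. The call of *Tbx4* was lost without WT replicate 2 (adjusted p = 0.0683) and without *Grhl3*-null replicate 2 (0.0943), and that of *Hand1* in each of the 3 such fits that could test it, with adjusted p up to 0.39.

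Some of the called genes lay near the *Grhl3* locus. Of 166 genes tested within 10 Mb of *Grhl3* on chromosome 4, 11 (6.63%) were called, 9 lower and 2 higher, against 5 of 472 on the rest of that chromosome and 103 of 9151 (1.13%) on the other autosomes. *Stmn1* (chr4:134468320-134473843, plus strand), a microtubule regulator 1.09 Mb from *Grhl3*, was at 919.8 and 911 CPM in WT and 303 and 356 CPM in *Grhl3*-null (log2 fold change -1.49 ± 0.06 (SE), adjusted p = 1.09e-07). *Hdac1* (chr4:129516104-129542713, minus strand), a histone deacetylase 6.03 Mb away, was at 180.1 and 162 CPM in WT and 79.3 and 73.97 CPM in *Grhl3*-null (log2 fold change -1.18 ± 0.09 (SE), adjusted p = 4.55e-05). Both were lower in *Grhl3*-null in each sex, *Stmn1* at 995 CPM in WT male, 336 CPM in *Grhl3*-null male, 906 CPM in WT female and 276 CPM in *Grhl3*-null female cells and *Hdac1* at 129.7 CPM in WT male, 76.5 CPM in *Grhl3*-null male, 176 CPM in WT female and 77.4 CPM in *Grhl3*-null female cells. *Grrp1*, 1.31 Mb away, rose (1.00 ± 0.12), and *Rpl11*, *Tcea3*, *Aunip*, *Hmgn2*, *Nudc* and *Psmb2* fell, while *Ptp4a2* rose. Of these *Psmb2* and *Ptp4a2* lost their calls on leaving out any of the 4 libraries (adjusted p up to 0.219 and 0.298). *Tcea3* did so without WT replicate 2 and without either *Grhl3*-null library (up to 0.159), *Hmgn2* without WT replicate 2 and *Grhl3*-null replicate 2 (up to 0.112) and *Aunip* without WT replicate 2 (0.0535).

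The 3 pseudogene-like entries among the largest increases are near-identical copies of genes in this region, and their counts are uncertain. *Gm10036* shares 99.3% of 534 bases with *Rpl11*, *Gm10093* 99.4% of 1444 bases with *Hdac1*, and *Gm10282* 99.3% of 1151 bases with *Hmgn2*. *Gm10036* was at 4.62 and 4.19 CPM in WT and 324 and 299 CPM in *Grhl3*-null and *Gm10093* at 0 and 0.931 CPM in WT and 48.2 and 43.2 CPM in *Grhl3*-null. The call of *Gm10282* was lost without *Grhl3*-null replicate 2 (1.10, adjusted p = 0.0543). *Gm10093* held 2 UMIs in WT, a ratio of 103 (95% counting interval 28.4 to 854). When each copy was added to its gene, *Grhl3*-null over WT ratios were 0.902 for *Rpl11* with *Gm10036*, 0.713 for *Hdac1* with *Gm10093* and 0.826 for *Hmgn2* with *Gm10282*. *Stmn1* also has a copy, *Gm11223*, identical over 99.8% of 450 bases, which was not analysed here. How reads of such copies were assigned between genotypes was not tested.

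Sex-linked genes marked the difference in sex. *Xist*, the RNA of the inactive X chromosome, was at 589 and 635 CPM in WT and 92.4 and 26.05 CPM in *Grhl3*-null (log2 fold change -3.42 ± 0.32 (SE), adjusted p = 0.000198), and *Eif2s3y* of the Y chromosome at 5.04 and 6.05 CPM in WT and 39.9 and 45.8 CPM in *Grhl3*-null (log2 fold change 2.93 ± 0.20 (SE), adjusted p = 1.52e-05). Of the 5 genes tested that the annotation places on the Y chromosome, *Eif2s3y*, *Ddx3y*, *Uty* and *Kdm5d* rose and *Gm47283* fell (-0.52 ± 0.08). *Gm47283*, at a mean of 216 CPM in ventral cells, was not used to call sex, and whether it marks male cells was not tested. The call of *Kdm5d* was lost without *Grhl3*-null replicate 2 (adjusted p = 0.0904), and that of *Gm47283* without WT replicate 1 (0.0515), WT replicate 2 (0.0668) and *Grhl3*-null replicate 2 (0.118). On the X chromosome 8 of 367 genes were called.

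The third comparison asked whether the genotype difference in ventral cells departed from that in dorsal cells. The interaction was called for 12 of 10382 genes (0.116%), 7 with a higher and 5 with a lower value in ventral cells, and no member of the ventral domain, Hedgehog, caudal progenitor or *Hox* lists was among them by edgeR or DESeq2. At an unadjusted p under 0.05 these lists held 0, 1, 4 and 0 genes, of 634 in all. Of the 15 ventral domain genes 5 (*Shh*, *Nkx2-9*, *Olig2*, *Olig1* and *Nkx6-2*) held at most 3 UMIs in all dorsal cells, so no genotype difference in dorsal cells could be measured for them and their interaction test is not informative. For *Ptch1*, *Cdx2* and *Hoxa9* the adjusted p of the interaction was 0.917, 0.755 and 0.914, which does not show that their differences were alike. In the edgeR genotype test of dorsal cells *Hoxa9* (-0.95, adjusted p = 0.00428), *Hoxc9* (-0.75, 0.00467) and *Cdx4* (-0.96, 0.00704) fell as well. *Cdx2* (-0.53, adjusted p = 0.228) and *Ptch1* (0.37, 0.276) did not pass there. DESeq2 was not run for the genotype difference in dorsal cells, so these dorsal calls rest on edgeR alone. Of the 12 genes 5 make cholesterol and other isoprenoids, a grouping made after the values were seen. *Hmgcs1*, which makes the precursor HMG-CoA, was at 143 and 143 CPM in WT and 142 and 139 CPM in *Grhl3*-null in ventral cells, where it did not pass the genotype test (-0.04, adjusted p = 0.878). In dorsal cells it was at 248 and 232 CPM in WT and 135 and 138 CPM in *Grhl3*-null and fell (-0.82, adjusted p = 4.48e-05). It was thus high in the dorsal cells of WT and at nearly equal levels in the other 3 sums of genotype and class. The difference of the 2 effects was 0.78 ± 0.11 (SE), adjusted p = 0.00676.

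*Fdft1*, *Msmo1*, *Idi1* and *Fdps*, enzymes of the same pathway, had differences of 1.00 ± 0.17, 0.78 ± 0.13, 0.68 ± 0.11 and 0.63 ± 0.11 (SE) on the log2 scale, with adjusted p of 0.022, 0.022, 0.0214 and 0.022. *Idi1* and *Fdps* fell in ventral cells as well (-0.33 and -0.69) but by less than in dorsal cells (-1.01 and -1.33). The ventral call of *Idi1* was lost on leaving out any of the 4 libraries (adjusted p from 0.101 to 0.406). *Pcyt2*, an enzyme of phospholipid synthesis, was at 21.4, 18.2, 22.5 and 23.8 CPM in ventral and 56.8, 37.95, 20.6 and 19.6 CPM in dorsal cells. *Crabp1* ran the other way, at nearly equal ventral levels and with a dorsal rise in *Grhl3*-null (0.78, adjusted p = 0.0136). Without WT replicate 1 the calls of *Fdft1*, *Fdps* and *Pcyt2* were lost (adjusted p = 0.136, 0.0789 and 0.074), and without *Grhl3*-null replicate 1 those of *Fdft1*, *Fdps*, *Pcyt2*, *Msmo1* and *Crabp1* (0.0983, 0.135, 0.0552, 0.148 and 0.0552). The call of *Crabp1* was also lost with doublets removed and without the gut-rich cells. With DESeq2 in place of edgeR the interaction was called for 1 gene, *Xist*.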

How the data were processed

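Single-cell libraries (Chromium 3′ v3.1) were prepared from the caudal part of pooled E8.5 embryos, 5 WT and 3 *Grhl3*-null, in 2 reactions per pool. Per the labels, the authors processed reads with Cell Ranger 3.0.0 against mm10 and deposited, for each library, a matrix of UMI counts per gene and cell, which was the unit used here. The 4 matrices held 6186, 5698, 6177 and 6178 cells and 230556666, 224056649, 232903564 and 217559026 UMIs. A cell was kept (5459, 5116, 4842 and 4781 of them) where it showed no fewer than 3000 genes and 7500 UMIs, with a mitochondrial share of no more than 7%.

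Cells were assigned by raw UMIs, and the members and the 25 gene lists (420 genes) were chosen with earlier results of these data known. Raw counts were summed per library and class. Genes were tested with edgeR 4.0.16 in R 4.3.3 (filterByExpr, TMM, quasi-likelihood test, Benjamini-Hochberg adjustment over all genes, called at an adjusted p under 0.05). The comparison of ventral with dorsal cells and the interaction were fitted over all 8 sums with the library as a block. DESeq2 1.42.0 was an alternative. The 9 genes of the rule were left out of counts. Because 1 pool was made per genotype, p-values measure the spread between the 2 reactions of a pool, which is technical. They do not measure the spread between embryos. The summed ventral counts of the replicate libraries differed beyond counting noise, with a chi-square of 1.73 per degree of freedom in WT (9289 genes) and 1.93 in *Grhl3*-null (10707 genes).

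Shares have 95% Clopper-Pearson intervals, sums by sex have exact Poisson intervals, and a count of 0 has a floor of 3 UMIs. These cover counting error only. Differences of shares were tested with an exact two-sided permutation test. Doublets were scored with Scrublet in scanpy 1.11.5, whose automatic threshold marked at most 0.0418% of a library and had therefore not worked, and the top 5% of each library were marked in its place. They were removed only in an alternative. Endothelial cells, used as background, were called from summed endothelial markers of at least 5 UMIs and no UMI of *Sox2*. This background thus left out cells with that neural transcript. The genes named were those of the rule, those of the lists and, for each test, the 10 largest increases and decreases among called genes with a mean of at least 10 CPM (5 for the interaction), with some genes outside it named after their values were seen. A few genes counted here are not reported by name. Gene positions were taken from GENCODE M21 on mm10, and near-identical copies were found by aligning transcripts. The scripts were tested on simulated data.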

Additional observations from a re-analysis of the deposited data

Results flagged for a closer look

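The genotype difference departed between ventral and dorsal cells, by the interaction test in edgeR, for 12 genes. The values that follow are the log2 difference of *Grhl3*-null from WT in ventral cells minus the same difference in dorsal cells. Lower values in ventral cells were found for *Crabp1* (-1.02, adjusted p = 0.0214), *Xist* (-0.86, adjusted p = 0.00658), *Gja1*, a gap junction protein (-0.57, adjusted p = 0.0255), *Ube2c*, a mitotic ubiquitin-conjugating enzyme (-0.42, adjusted p = 0.0214), and the chaperone *Hsp90ab1* (-0.18, adjusted p = 0.032). The call of *Crabp1* was lost with doublets removed and without the gut-rich cells. That of *Hsp90ab1* was lost with RLE in place of TMM normalization, with at least 2 UMIs of *Nkx6-1* or *Pax3* required and at a mitochondrial limit of 5%. Higher values were found for the tubulin *Tuba1a* (0.39, adjusted p = 0.0214), *Fdps* (0.63, adjusted p = 0.022), *Idi1* (0.68, adjusted p = 0.0214), *Hmgcs1* (0.78, adjusted p = 0.00676), *Msmo1* (0.78, adjusted p = 0.022), *Fdft1* (1.00, adjusted p = 0.022) and *Pcyt2* (1.45, adjusted p = 0.022). The calls of *Gja1* and *Ube2c* were lost without *Grhl3*-null replicate 1 (adjusted p = 0.261 and 0.0552), and that of *Hsp90ab1* without *Grhl3*-null replicate 1 (0.111) and *Grhl3*-null replicate 2 (0.177).

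The share of ventral cells among male minus that among female filtered cells was -1.20 percentage points as the mean of the WT libraries and 4.30 as the mean of the *Grhl3*-null libraries. Both libraries of each genotype went the same way, and the difference between genotypes was not tested.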

How the results depend on the processing

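The number of genes called between genotypes in ventral cells, 138, was 75 with DESeq2, 451 without a filter on low counts, 261 without the gut-rich cells (an alternative chosen after seeing the data) and 49 to 79 with 1 library left out. The 677 genes called between ventral and dorsal cells became 250 with DESeq2, 351 without the library block, 267 in the WT libraries alone and 363 to 741 with 1 library left out. With DESeq2 the genes lower in ventral cells numbered 3 in place of 10 in the *Hox* list and 1 in place of 6 in the somitic list, and those higher 1 in place of 6 in the visceral endoderm list, 0 in place of 5 in the closure list, 1 in place of 4 in the caudal progenitor and cell cycle lists, 3 in place of 7 in the adhesion list and 8 in place of 12 in the general neural list. The 12 interaction genes became 1 with DESeq2, 55 without a filter on low counts and 10 to 59 with 1 library left out. *Ttr* (-0.94), *Rbp4* (-0.67), *Krt8* (-0.53), *Krt18* (-0.44) and *Epcam* (-0.46) changed sign in ventral against dorsal cells without the gut-rich cells, and *Rbp4* also at a mitochondrial limit of 5% (-0.21). The ventral share of neural cells, *Grhl3*-null minus WT, was -3.72 percentage points. It was 2.18 with cells thinned to 7500 UMIs, 2.10 with at least 2 UMIs of *Nkx6-1*, -15.7 in male cells, -14.5 in female cells and -5.80 to -1.64 with 1 library left out. The ventral share of filtered cells, 1.73 points higher in *Grhl3*-null, was -1.17 in female cells, 4.33 in male cells and 1.38 to 2.08 with 1 library left out. The cause of these changes was not tested.

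With the replicate number as a block 133 genes were called between genotypes. In the interaction, where it took the place of the library block, 1 gene (*Hmgcs1*) was called, and the other 11 lost their calls. The deviations of same-numbered libraries correlated at r = -0.228 over 8953 genes, so the numbers pair no libraries. With the pairing crossed, an alternative added after seeing the data, the calls were 195 and 1 (*Hmgcs1*). Of the called genes named in the text, 25 of 64 between genotypes, 56 of 113 between ventral and dorsal cells and 0 of 12 in the interaction had a value and kept their call under every alternative run. A further 1, 9 and 0 kept it wherever they had a value but had none under some alternative. Fits to male or female cells alone and fits split by *Hox9* UMIs were planned and not run, because some sums held fewer than 10 cells. The sums of ventral cells in WT rest on 70 and 62 cells, which limits what low genes such as *Shh* can show.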

Other observations

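Outside the lists, genes of energy and sterol metabolism in ventral cells were grouped after their values were seen, and the groups were not tested. Over all genes tested 0.678% were higher and 0.678% lower in *Grhl3*-null. Of the 13 protein-coding genes of the mitochondrial genome, all tested, 6 were higher and none lower by edgeR, with log2 fold changes from -0.34 to 0.41. Of 17 glycolytic genes tested none was higher and 6 were lower, with log2 fold changes from -0.51 to 0.22. The mitochondrially encoded genes *mt-Co1* (2558, 2588, 3401 and 3427 CPM in WT replicates 1 and 2 and *Grhl3*-null replicates 1 and 2; log2 fold change 0.39 ± 0.04 (SE), adjusted p = 0.000186), *mt-Co3* (0.36 ± 0.04) and *mt-Nd3* (0.41 ± 0.06) of the respiratory chain rose in *Grhl3*-null, as did *mt-Nd5*, *mt-Nd4* and *mt-Nd2*. The median mitochondrial share per ventral cell was 3.00% and 3.14% in WT and 3.53% and 3.61% in *Grhl3*-null. The glycolytic genes *Aldoa* (-0.29 ± 0.04), *Pgk1* (-0.25 ± 0.04), *Ldha* (-0.24 ± 0.04), *Ldhb* (-0.51 ± 0.10), *Pkm* (-0.23 ± 0.04) and *Tpi1* (-0.20 ± 0.04) fell by small amounts on the log2 scale (SE). The calls of *mt-Nd2*, *Ldhb* and *Tpi1* were lost on leaving out any of the 4 libraries, with adjusted p up to 0.137, 0.199 and 0.272. Without WT replicate 1 those of *mt-Nd4*, *Aldoa*, *Pgk1* and *Pkm* were also lost (adjusted p = 0.0542, 0.0859, 0.131 and 0.097). Without WT replicate 2 those of *mt-Nd4* and *mt-Nd5* were lost (0.0865 and 0.144), and without *Grhl3*-null replicate 1 those of *mt-Nd4* and *Pkm* (0.0537 and 0.0604). Without *Grhl3*-null replicate 2 those of *mt-Nd5*, *Aldoa*, *Pgk1*, *Ldha* and *Pkm* were lost (0.164, 0.0749, 0.124, 0.0612 and 0.0904).

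Of 20 genes of cholesterol synthesis tested none was higher and 5 were lower, with a median log2 fold change of -0.25 and a range from -0.69 to 0.11, and 15 did not pass, among them *Hmgcs1* (-0.04, adjusted p = 0.878), *Msmo1* (-0.18, adjusted p = 0.398) and *Fdft1* (-0.24, adjusted p = 0.332). Besides *Idi1*, *Fdps* (-0.69 ± 0.07), *Acat2* (-0.55 ± 0.08), *Pmvk* (-0.53 ± 0.10) and *Ebp* (-0.54 ± 0.10) fell in *Grhl3*-null ventral cells. The calls of *Pmvk* and *Ebp* were lost on leaving out any of the 4 libraries (adjusted p up to 0.187 for both), and that of *Acat2* without *Grhl3*-null replicate 1 (0.0592) and *Grhl3*-null replicate 2 (0.0943).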
